A study of Homo sapiens with 8 samples.

Results

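The PBX, MEIS, PKNOX and TGIF proteins are transcription factors of the TALE (3-amino-acid loop extension) homeobox class. The genes examined were *PBX2*, *PBX3*, *PBX4*, *MEIS1*, *MEIS2*, *MEIS3*, *PKNOX1*, *PKNOX2* and *TGIF1*, taken by their names as given in the deposited count table. All 9 were found among the 38551 genes with values. Poly(A) RNA was sequenced from MOLM-13, an established human cell line of acute myeloid leukemia with a rearranged *KMT2A* gene. Cells were kept for 72 h with the immunoproteasome inhibitor PR-957 (also known as ONX-0914) at 100 nM, or with its diluent DMSO, in 4 libraries each. All libraries come from the same line, at 1 dose and 1 time, so that nothing here extends to other leukemias or doses. The labels do not say whether the 4 libraries of a group came from separate cultures, and p-values measure the spread between these libraries, which may be technical.

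PBX proteins bind DNA together with HOX proteins and with MEIS or PKNOX proteins, and contact with MEIS or PKNOX partners holds PBX in the nucleus. In *KMT2A*-rearranged leukemia, *HOXA9*, *MEIS1* and *PBX3* are known as jointly expressed genes that sustain the leukemic program. TGIF1 is a smaller TALE protein that recruits corepressors and limits SMAD and retinoid transcription, and it shares its DNA core motif with MEIS and PKNOX.

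The feature that defines the class is an insertion of 3 residues between the first and the second helix of the homeodomain, which lengthens the homeobox to 63 codons. The coding sequence around it is shown for the genes that carry the findings, to make visible how near the paralogs are and where they differ. The capitals mark the 3 loop codons, and 9 codons are given on either side (GENCODE release 44, hg38, 5′ to 3′ on the coding strand). *PBX3* lies on the plus strand at chr9:125935518-125935580 in exon 5, *PBX2* on the minus strand at chr6:32187674-32187736 in exon 5, and *TGIF1* on the plus strand at chr18:3456491-3456553 in exon 2. In *MEIS1* (plus strand, chr2:66512271-66547981), *MEIS2* (minus strand, chr15:36950362-37036837) and *PKNOX1* (plus strand, chr21:43021408-43024909) an intron interrupts the stretch, and the sequence is that of the joined exons.
PBX3: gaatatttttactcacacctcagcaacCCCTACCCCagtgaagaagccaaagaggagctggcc
PBX2: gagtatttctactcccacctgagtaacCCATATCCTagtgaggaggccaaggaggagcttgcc
MEIS1: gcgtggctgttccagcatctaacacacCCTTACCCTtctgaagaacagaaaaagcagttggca
MEIS2: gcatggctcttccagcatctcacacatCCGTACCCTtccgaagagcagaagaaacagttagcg
PKNOX1: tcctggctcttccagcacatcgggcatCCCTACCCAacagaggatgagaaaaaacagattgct
TGIF1: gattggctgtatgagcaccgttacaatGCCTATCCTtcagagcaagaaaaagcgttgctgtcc
Over the whole homeobox, *PBX2* and *PBX3* were identical at 79.4% of bases and *MEIS1* and *MEIS2* at 84.7%. *MEIS1* and *PKNOX1* shared 64.0%, *PBX3* and *MEIS1* 51.3%, and *PBX3* and *TGIF1* 48.7%. Apart from *PBX2*, the genes are nevertheless distinct over stretches of 100 bases. Every 100-base window in the exons of the other 8 genes occurred once in the genome, whereas this held for 3.86% of the windows of *PBX2*. *PBX2* lies in the major histocompatibility region, and the deposited gene models place it on chromosome 6 and on 6 alternate versions of that region, 7 placements in all. On the primary chromosomes alone, 83.2% of its windows occurred once. Reads with several placements were not counted, so the level of *PBX2* may be understated, and by how much was not tested.

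The libraries held 16675036 to 23111223 counted fragments, and a count of 3 in a library corresponded to 0.130 to 0.180 CPM, the count scaled to a common library size. That floor uses raw library totals, whereas the levels given below are also normalised between libraries. DMSO 4, the deepest library, stood apart from the other DMSO libraries. Its chi-square per gene against them was 9.52 to 14.2, compared with 3.18 to 5.49 among the other 3. The 8 myeloid markers examined were all detected, and their summed level was 1367 to 1425 CPM under DMSO and 1582 to 1650 CPM under PR-957. Of these markers, 3 were called higher, 1 lower and 4 in neither direction by edgeR. *MPO* went from 175 to 506 CPM (mean of 4 libraries each), the largest increase, and *FLT3* from 340 to 173 CPM. The 10 genes listed as markers of other cell types summed to 75.5 to 99.8 CPM under DMSO and 106 to 117 CPM under PR-957. Of these, *CD3E* was at 0 in all libraries and *HBB* at 2 counts or fewer. Nearly all of that sum was *PECAM1* and *KRT18*. *PECAM1* went from 49.2 to 83.0 CPM and was called higher. *KRT18* went from 33.7 to 27.5 CPM and was called lower, as in 11 of the 18 alternatives. The sum therefore follows these genes and gives no measure of other cells. The part of these shifts in the results below was not tested, and in bulk RNA fewer cells with a transcript cannot be told apart from less of it per cell.

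Under PR-957, *PBX3*, *MEIS1*, *MEIS2* and *TGIF1* fell, and *PBX3* fell the most. No member rose, with edgeR or with DESeq2 or limma-voom, and at an unadjusted p under 0.05 the count was the same 4. *PBX2* and *PKNOX1* did not pass the test, and *PBX4*, *MEIS3* and *PKNOX2* had too few counts to be tested. Of the 6 members tested, 4 were called by edgeR's quasi-likelihood test (Benjamini-Hochberg adjusted p under 0.05 over all tested genes), and the libraries of the 2 groups did not overlap for the same 4. For comparison, 46.6% of the 13179 tested genes were called in either direction, 23.5% lower and 23.1% higher. The groups did not overlap for 42.5% of all tested genes, and for 21.7% they did not overlap with PR-957 lower. The median log2 fold change was −0.28 over the 6 tested members and 0.00 over all tested genes. Over all genes, 3045 were higher and 3098 lower. Scaling by library totals alone gave 4066 higher and 2353 lower, and under that scaling 3 members were called, without *MEIS2*. At an unadjusted p under 0.05 the count under that scaling was 5, with *PKNOX1* higher (0.15, edgeR unadjusted p = 0.0396). Without DMSO 4 the unadjusted count was also 5.

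**Figure D1:**
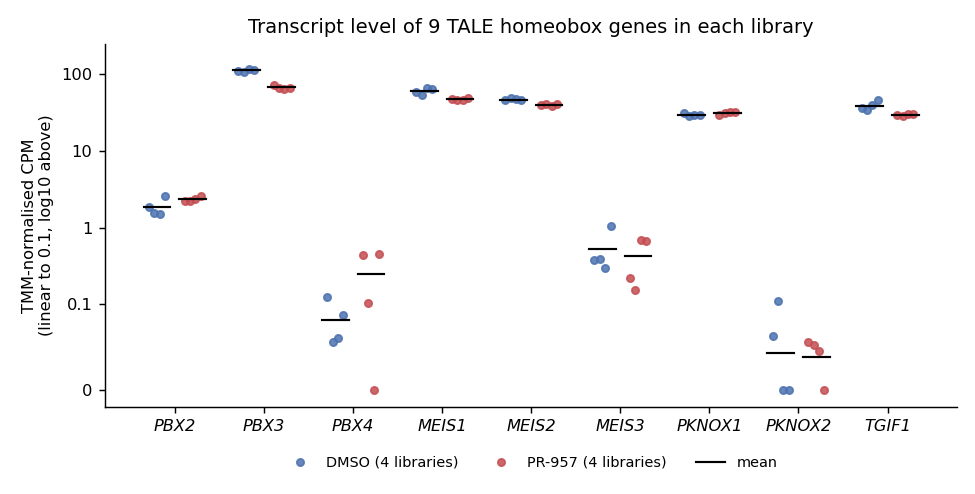
Normalised CPM (y axis, linear to 0.1 and log10 above) of each of the 9 genes in the 4 DMSO and 4 PR-957 libraries, with each point a library and each black line a group mean. *PBX3* spans 109 to 116 CPM under DMSO and 64.3 to 72.8 CPM under PR-957, while *PBX4*, *MEIS3* and *PKNOX2* lie near the floor in both groups.

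*PBX3* (chr9:125747372-125967377, plus strand, hg38) encodes the PBX paralog that partners HOXA9 and MEIS1 in leukemia. Its normalised level was 112, 109, 116 and 115 CPM in the 4 DMSO libraries. In the 4 PR-957 libraries it was 72.8, 67.5, 64.3 and 66.6 CPM. All PR-957 libraries were below all DMSO libraries, and the gap between the groups was wider than the spread within either. The means were 113 ± 3.29 and 67.8 ± 3.58 CPM (SD, n = 4 each). The level fell by 40.1%, and the log2 fold change was −0.74 ± 0.06 (SE, edgeR adjusted p = 3.08e-09). *PBX3* was the only member lower by at least 1.5-fold, a class that held 7.00% of all tested genes. A larger decrease was seen for 687 tested genes, or 5.21%. Without DMSO 4 the log2 fold change was −0.73.

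*PBX2* (chr6:32184733-32190202, minus strand) encodes the broadly expressed PBX paralog. Its level was 1.88, 1.56, 1.51 and 2.62 CPM under DMSO and 2.23, 2.24, 2.37 and 2.59 CPM under PR-957. These values rest on 25 to 60 counts per library. DMSO 4 lay above all PR-957 libraries and the other DMSO libraries below them, so the groups overlapped. The log2 fold change was 0.30 ± 0.23 (SE, edgeR adjusted p = 0.295), and without DMSO 4 it was 0.51 (adjusted p = 0.0721). *PBX4* (chr19:19561713-19618690, minus strand), a paralog known mainly from testis, had 2, 1, 1 and 2 counts under DMSO and 8, 2, 0 and 8 counts under PR-957. The sums of 6 and 18 counts gave a depth-corrected ratio of 2.87 with an exact 95% interval of 1.09 to 8.82. That interval covers counting error only, and 2 PR-957 libraries contributed nearly all of the counts.

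*PBX3* supplied nearly all of the counted PBX fragments. Per kilobase of exon, the scale on which genes can be compared, its level was 35.9 ± 1.04 CPM under DMSO and 21.5 ± 1.14 CPM under PR-957 (SD, n = 4 each). Under DMSO this was above 88.2% of all tested genes. *PBX2* stood at 0.0838 ± 0.0227 and 0.104 ± 0.00734 CPM per kilobase of the deposited length, which adds all 7 placements. Over the exon length of the primary placement alone it stood at 0.586 ± 0.159 and 0.730 ± 0.0513. *PBX3* made up 99.6% ± 0.0912 of the summed *PBX2*, *PBX3* and *PBX4* level under DMSO and 98.9% ± 0.555 under PR-957. The DMSO libraries were all higher in that share, and no test was run on it. Without *PBX4*, which had too few counts to be tested, the shares were 99.8% and 99.5%. With the primary length of *PBX2* the shares were 98.3% and 96.1%. *PBX3* was predominant among the counted PBX fragments in all 8 libraries on either length. Only 3.86% of the 100-base windows of *PBX2* occurred once in the genome. Its part may therefore be understated in every share here, and by how much was not tested.

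*MEIS1* (chr2:66435125-66573869, plus strand) encodes the HOXA9 cofactor that accelerates leukemia in experimental models. Its level was 58.7, 54.0, 65.7 and 63.7 CPM under DMSO. Under PR-957 it was 48.4, 47.1, 46.3 and 49.8 CPM. The lowest DMSO library was above the highest PR-957 library, and the PR-957 libraries lay closer together. The means were 60.5 ± 5.26 and 47.9 ± 1.56 CPM, and the level fell by 20.9%. The log2 fold change was −0.34 ± 0.07 (SE, edgeR adjusted p = 0.000327), and 18.7% of all tested genes had a larger decrease. Without DMSO 4 it was −0.31.

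*MEIS2* (chr15:36889204-37101311, minus strand) encodes a close paralog with roles in development and in other leukemias. Its level was 46.0, 49.3, 47.6 and 45.8 CPM under DMSO and 40.3, 40.9, 38.9 and 41.4 CPM under PR-957. The groups did not overlap, with a gap of a few CPM. The means were 47.2 ± 1.66 and 40.4 ± 1.06 CPM, and the level fell by 14.4%. The log2 fold change was −0.22 ± 0.06 (SE, edgeR adjusted p = 0.00434). The call was lost with library totals alone (−0.15, edgeR adjusted p = 0.0549) and with replicates 3 and 4 only (−0.22, edgeR adjusted p = 0.0671). *MEIS3* (chr19:47403118-47422233, minus strand), the remaining paralog, had 6, 7, 5 and 24 counts under DMSO and 4, 3, 15 and 12 under PR-957. The groups overlapped, and the depth-corrected ratio of the sums was 0.774 (exact 95% interval 0.477 to 1.25, counting error only).

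*PKNOX1* (chr21:42974510-43033931, plus strand) encodes PREP1, a ubiquitous PBX partner that competes with MEIS proteins for PBX. Its level was 31.7, 28.8, 29.9 and 29.6 CPM under DMSO and 29.9, 31.6, 32.1 and 32.6 CPM under PR-957. The groups overlapped through DMSO 1. The log2 fold change was 0.07 ± 0.07 (SE, edgeR adjusted p = 0.388), with an approximate 95% interval of −0.06 to 0.20. *PKNOX2* (chr11:125235037-125433389, plus strand), a paralog with a more restricted expression, summed to 3 counts in each group, which allows no fold.

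*TGIF1* (chr18:3411927-3459980, plus strand) had 37.0, 34.1, 39.8 and 46.0 CPM under DMSO. Under PR-957 the values were 29.7, 28.8, 30.4 and 30.6 CPM. The groups did not overlap, and DMSO 4 was the highest of its group. The means were 39.2 ± 5.09 and 29.9 ± 0.816 CPM, and the level fell by 24.0%. The log2 fold change was −0.40 ± 0.08 (SE, edgeR adjusted p = 0.000534). Without DMSO 4 it was −0.31 and still passed (edgeR adjusted p = 0.00112).

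**Figure D2:**
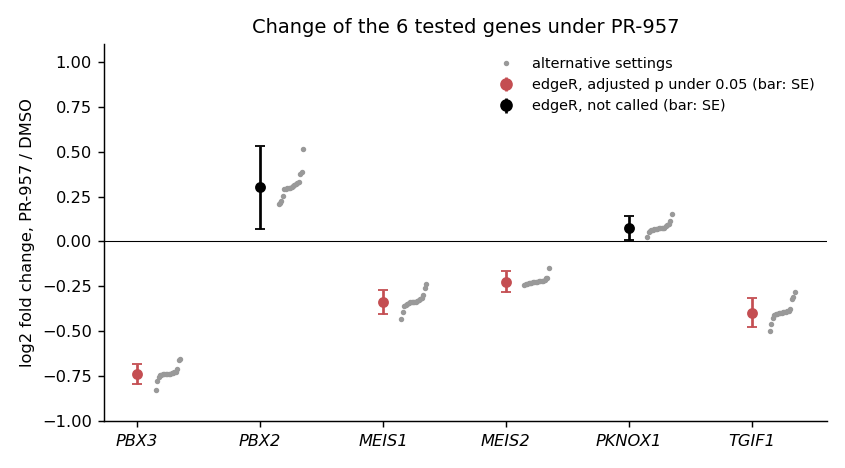
Log2 fold change of PR-957 over DMSO (y axis) for the 6 tested genes, with the SE as bars, 4 libraries per group, and grey points for the 18 alternative settings. *PBX3* lies at −0.74 with alternatives from −0.83 to −0.65, and *PKNOX1* at 0.07 with alternatives from 0.03 to 0.15.

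**Figure D3:**
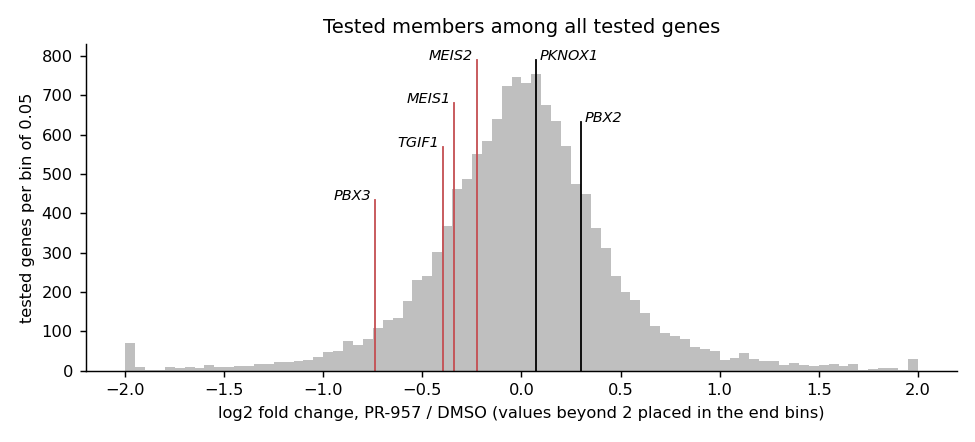
Number of tested genes (y axis) by log2 fold change of PR-957 over DMSO (x axis, bins of 0.05) for all 13179 tested genes, with values beyond 2 in the end bins and the 6 tested members marked by lines (red: called lower, black: not called). *PBX3* lies in the left part of the distribution, with 5.21% of genes beyond it, and *MEIS2* nearer the centre, with 27.1% beyond it.

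Among the MEIS genes, *MEIS1* was the most abundant. Per kilobase its level was 13.3 ± 1.15 CPM under DMSO and 10.5 ± 0.341 CPM under PR-957, compared with 6.28 ± 0.221 and 5.38 ± 0.141 CPM for *MEIS2*. *MEIS1* made up 67.2% ± 2.35 of the summed MEIS level under DMSO and 65.6% ± 0.399 under PR-957, and the groups overlapped. *PKNOX1*, at 5.61 ± 0.225 and 5.90 ± 0.219 CPM per kilobase, made up 22.2% ± 1.15 of the summed MEIS and PKNOX level under DMSO and 26.9% ± 0.844 under PR-957, without overlap. *TGIF1* stood at 6.12 ± 0.794 and 4.66 ± 0.127 CPM per kilobase. Under DMSO the order per kilobase was *PBX3*, *MEIS1*, *MEIS2*, *TGIF1* and *PKNOX1*. The libraries of *TGIF1* overlapped there with those of both *MEIS2* and *PKNOX1*. Under PR-957 *PKNOX1* followed *MEIS1*, ahead of *MEIS2* and *TGIF1*, and the libraries of those 3 genes did not overlap. These orders depend on the exon lengths of the deposited models.

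**Figure D4:**
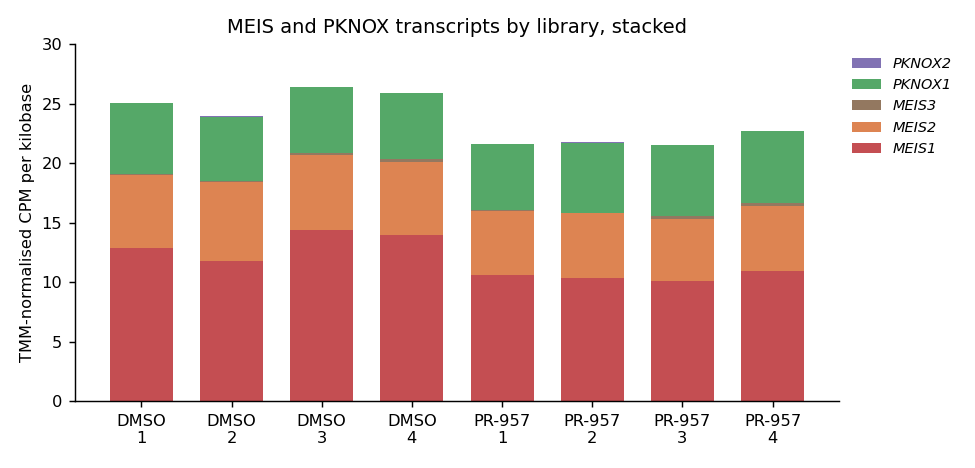
Stacked normalised CPM per kilobase (y axis) of the MEIS and PKNOX genes in each of the 8 libraries (x axis). The *MEIS1* segment averages 13.3 under DMSO and 10.5 under PR-957, while the *PKNOX1* segment averages 5.61 and 5.90.

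Whether members changed to different extents was tested for 3 pairs, with ratios of counts within each library, which need no normalization between libraries. Other pairs of members were not tested. The log2 ratio of *PBX3* to *MEIS1* was 0.91 ± 0.0852 under DMSO and 0.50 ± 0.0714 under PR-957 (SD, n = 4 each, difference −0.40), so *PBX3* fell more than *MEIS1*. The log2 ratio of *MEIS1* to *PKNOX1* went from 1.01 ± 0.130 to 0.60 ± 0.0702 (difference −0.41). That of *PBX3* to *PBX2* went from 5.92 ± 0.349 to 4.83 ± 0.152 (difference −1.08), with the denominator limited by the low counts of *PBX2*. No ratio overlapped between the groups. The exact permutation test over samples gave p = 0.0286 for each (two-sided), the smallest that 4 against 4 libraries can give, and 0.0286 after adjustment over the 3 ratios. For *PBX3* to *PBX2*, leaving out PR-957 3 or PR-957 4 gave p = 0.0571 by the exact test, with differences of −1.06 and −1.03.

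**Figure D5:**
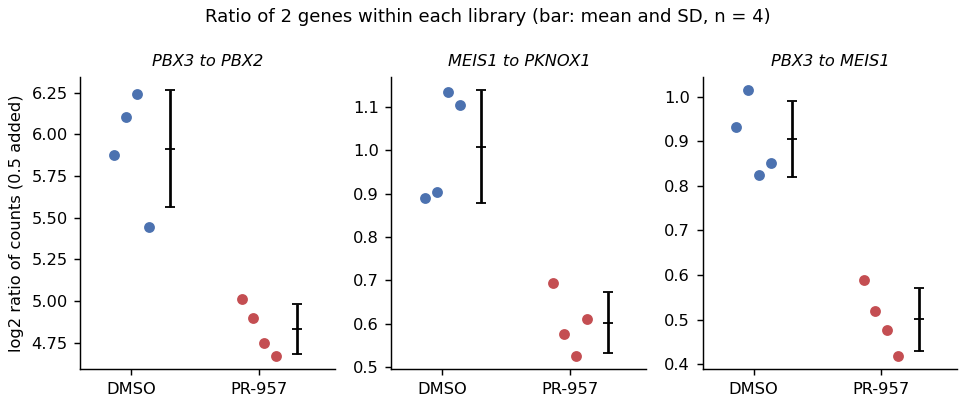
Log2 ratio of counts with 0.5 added (y axis) for 3 pairs of genes in the 4 DMSO and 4 PR-957 libraries, with points for libraries and bars for the mean and SD. All PR-957 points lie below all DMSO points in each panel, with mean differences of −1.08, −0.41 and −0.40.

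Genes that moved most like *PBX3* and *MEIS1* were sought among 10857 genes by the root mean square difference of centred log2 CPM over the 8 libraries. Nearest to *PBX3* were *NT5C3A* at 0.0263, *MCRIP1* at 0.0437 and *HAX1* at 0.0485, with log2 fold changes of −0.75, −0.72 and −0.75. Nearest to *MEIS1* were *ACP1* at 0.0515, *NICN1* at 0.0526 and *MRPL30* at 0.0561, with log2 fold changes of −0.35, −0.35 and −0.34. No other member was among these. By nearness to *MEIS1*, *TGIF1* ranked 63rd, *MEIS2* 642nd and *PBX3* 4414th. By nearness to *PBX3*, *TGIF1* ranked 1103rd, *MEIS1* 1164th and *MEIS2* 2092nd.

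The stretch before the transcription start is shown for *PBX3* and *MEIS1*, the members known to act together with HOXA9 and both lower under PR-957. Sequences are the 250 bases upstream of the RefSeq start (GRCh38.p14), on the plus strand, at chr9:125747933-125748182 for *PBX3* and chr2:66434875-66435124 for *MEIS1*. Capitals mark a match to the MEIS, PKNOX and TGIF core TGACAG, read on either strand. The *PBX3* stretch lies inside an intron of the longest deposited model.
PBX3 upstream: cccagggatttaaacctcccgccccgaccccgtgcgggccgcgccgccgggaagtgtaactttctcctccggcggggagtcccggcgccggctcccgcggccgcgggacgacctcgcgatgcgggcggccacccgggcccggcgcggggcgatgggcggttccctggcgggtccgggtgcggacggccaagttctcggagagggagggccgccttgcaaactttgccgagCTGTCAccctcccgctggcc
MEIS1 upstream: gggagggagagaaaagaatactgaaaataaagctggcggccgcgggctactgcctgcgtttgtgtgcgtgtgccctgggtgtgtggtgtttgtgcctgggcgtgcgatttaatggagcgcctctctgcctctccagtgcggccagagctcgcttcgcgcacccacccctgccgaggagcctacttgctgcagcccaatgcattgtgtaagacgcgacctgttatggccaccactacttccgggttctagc
The *PBX3* window, which also takes in the 50 bases after the start, held 1 match, as CTGTCA at positions −20 to −15. The *MEIS1* window held none. Of 35116 promoter windows of this length, 15.8% held that core, and 7.40% held TGATNNAT, the PBX with HOX motif. Both motifs begin with TGA, and their matches were counted separately on both strands. Windows were found for 8 of the 9 members, all but *PKNOX2*. The core was also found in windows of *TGIF1*, with 3 matches in 2 windows. The PBX with HOX motif was found in windows of *MEIS2* and *TGIF1*. The GC content was 75.6% in the *PBX3* stretch and 59.6% in that of *MEIS1*. A match says only that these letters are present.

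The genes with which these cofactors work were described from gene lists. Of the 11 HOXA cluster genes tested, 5 fell, with a median log2 fold change of −0.35. Over all tested genes, 23.5% were called lower. The count of HOXA genes that fell was 4 with replicates 3 and 4 only. It was 6 with the replicate number as a block, without DMSO 4, and with replicates 1 and 2 only. The largest decrease was that of *HOXA3* (−0.81 ± 0.10 SE, edgeR adjusted p = 1.60e-06), a patterning gene of the cluster. *HOXA9*, the leukemic partner of *PBX3* and *MEIS1*, had 14.4 ± 1.28 CPM under DMSO and 9.40 ± 2.12 CPM under PR-957 (log2 fold change −0.61, edgeR adjusted p = 0.00144). Its value is uncertain because 72.4% of its exon bases are shared with the readthrough gene *HOXA10-HOXA9*. *HOXA10* had 124 ± 4.68 and 88.8 ± 4.13 CPM (log2 fold change −0.48, edgeR adjusted p = 8.78e-07). It shares 7.83% of its exon bases with *HOXA10-HOXA9* on the same strand, and 22.1% face the antisense gene *HOXA10-AS*.

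Among 14 genes described elsewhere as downstream of HOXA9, MEIS1 or PBX3, 12 were tested, of which 7 fell, 3 rose and 2 did not pass. The median log2 fold change was −0.24. With replicates 3 and 4 only, 5 fell and 1 rose. The largest decrease was that of *PIM1*, a survival kinase (−1.26, edgeR adjusted p = 0.00295), and the largest increase that of *TRIB2*, a pseudokinase (1.36, edgeR adjusted p = 0.00286). *PIM1* varied widely under DMSO, at 76.9 ± 22.1 CPM (62.2 to 110), and had 32.2 ± 4.17 CPM under PR-957. Its SE was 0.21, and it was called in 17 of the 18 alternatives. *TRIB2* was low, at 2.59 ± 1.00 CPM under DMSO and 6.74 ± 2.25 CPM under PR-957. Within a list of proteins that bind PBX or MEIS, 2 of the 11 tested rose, 2 fell and 7 did not pass, with a median of −0.03. With library totals alone 4 rose and 1 fell, and with replicates 3 and 4 only the sole call was 1 that fell. Without PR-957 1 or PR-957 3, 1 rose and 2 fell. The corepressor *NCOR1* fell the most (−0.26, edgeR adjusted p = 0.00150) and the deacetylase *HDAC3* rose the most (0.20, edgeR adjusted p = 0.00626). Of the 13 TGIF1 and SMAD pathway genes, 5 fell and 8 did not pass, with a median of −0.16. That count of 5 depended on the setting. It was 1 with library totals alone, where *SKI* was the gene called, and 2 without DMSO 2, DMSO 4, PR-957 1 or PR-957 4. It was 3 without DMSO 3 or PR-957 3, and between 1 and 7 over the 18 alternatives. The largest decrease there was that of *SKI*, a SMAD corepressor (−0.32, edgeR adjusted p = 0.000129). Over all 13179 tested genes, 3045 rose, 3098 fell and 7036 did not pass.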

How the data were processed

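RNA of MOLM-13 cells was sequenced in 8 libraries, 4 per group, and samples were grouped by the treatment in the labels. Per the labels and the file headers, the authors trimmed the reads (Trimmomatic 0.39), aligned them to hg38 (STAR 2.7.10a) and deposited raw counts per gene from featureCounts 2.0.1, which took properly paired fragments on the reverse strand and left out fragments with several placements. Of the 38557 rows, 6 had no values. A second deposited table holds only the authors' own comparison (fold changes and p-values) and was not used. The counting command lists 16 libraries, of which the 8 not in the table were not analysed here.

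Genes passing edgeR's filter were tested with the edgeR 4.0.16 quasi-likelihood test in R 4.3.3 after TMM scaling, with Benjamini-Hochberg adjustment over all 13179 genes and a threshold of 0.05. CPM are TMM-normalised. SDs are over the 4 libraries of a group. Levels per kilobase use the deposited exon lengths. Intervals and floors of 3 counts cover counting error only. Ratios of counts (0.5 added) were compared by exact permutation. No pair of libraries agreed within sampling noise. The alternatives were other scalings, other filters, DESeq2 1.42.0, limma-voom 3.58.1, each library left out, a replicate block and subsets of replicates. The members and gene lists were chosen with earlier results of these data known. Named genes are the members, *HOXA9*, *HOXA10*, the 3 genes nearest to *PBX3* and to *MEIS1*, and the called gene with the largest increase and the largest decrease in each list except the marker lists. The marker genes given were named after their values were seen. A result on 1 gene that this rule names is not reported here.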

Additional observations from a re-analysis of the deposited data

Results flagged for a closer look

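In 1 group of the 28 examined, a library stood apart from the other 3. *MEIS3* was at 1.05 CPM in DMSO 4 and at 0.30 to 0.39 CPM in the other DMSO libraries, which rests on 24 counts against 5 to 7. Chance flags about 1 in 20 groups. *MEIS3* was not tested between the treatments.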

How the results depend on the processing

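*PBX3*, *MEIS1* and *TGIF1* were lower and called in each of the 18 alternatives, *MEIS2* in 16, and *PBX2* and *PKNOX1* in none. The count of members called was 4 in each alternative other than library totals alone and replicates 3 and 4 only, where it was 3 without *MEIS2* (−0.15 and −0.22). Leaving out 1 library gave 5305 to 6287 called genes against 6143, and 4 members each time. With replicates 1 and 2 only, *PBX3* was at −0.65, *MEIS1* at −0.24 and *TGIF1* at −0.28, and with replicates 3 and 4 only at −0.83, −0.43 and −0.50. On raw counts without length the share of *PBX3* was 98.3% under DMSO and that of *MEIS1* 55.9%. The share with the primary length of *PBX2*, 98.3%, was chosen after seeing the data. Leaving out 1 library moved the *PBX3* to *PBX2* difference between −1.24 and −0.97, with p = 0.0571 by the exact test without PR-957 3 or PR-957 4, *PBX3* to *MEIS1* between −0.43 and −0.37, and *MEIS1* to *PKNOX1* between −0.45 and −0.36.

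Libraries with the same replicate number deviated together with correlations of 0.0985 to 0.213, and 7 of 8 libraries correlated best with their own number, a hint from the data only. With the replicate as a block, 6913 genes and the same number of members, 4, were called. The 3 ratio differences (−1.08, −0.41 and −0.40) then had p = 0.125 by the exact sign-flip test, the smallest that 4 pairs allow. Low counts limit *PBX2*, *PBX4*, *MEIS3* and *PKNOX2*. For *PBX2*, fragments with several placements were also left out of the count.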

Other observations

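Of the 9 other TALE homeobox genes listed, 3 had enough counts to be tested, and none was called by edgeR. *IRX3*, *TGIF2* and *IRX5* are named after their values were seen. *IRX3*, a patterning gene that is also expressed in some acute myeloid leukemias, had 117 ± 14.6 CPM under DMSO and 126 ± 7.61 CPM under PR-957 (log2 fold change 0.11, edgeR adjusted p = 0.255). *TGIF2*, the paralog of *TGIF1*, had 42.0 to 45.5 CPM under DMSO and 43.3 to 47.4 CPM under PR-957 (log2 fold change 0.03, edgeR adjusted p = 0.745). Per kilobase of the deposited length, *TGIF2* was at 12.4 and 12.6 CPM (means under DMSO and PR-957), above *TGIF1* at 6.12 and 4.66. *IRX5* had 13.2 to 16.2 CPM and 12.0 to 13.8 CPM (log2 fold change −0.14, edgeR adjusted p = 0.235). At an unadjusted p under 0.05 none of the 3 passed. With library totals alone *IRX3* was called (0.19, edgeR adjusted p = 0.0386), and it was called in 1 of 18 alternatives and the other two in none. No test was made of whether *TGIF1* and *TGIF2* differ in their change. Another 4 of the listed genes were at 0 counts in all libraries.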
